A study of Homo sapiens with 16 samples.

Results

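The cytosolic ribosomal protein genes were taken as the protein-coding genes on chromosomes 1 to 22 whose symbol is RPL or RPS followed by digits and, in some, a final A or X. This gave 69 genes of 19974 protein-coding genes in the gene table, 40 of the large and 29 of the small subunit. Open chromatin of U87 cells, a long-established line from a human glioblastoma, had been profiled with NicE-seq. In that method the nicking enzyme Nt.CviPII and DNA polymerase I label open DNA in fixed nuclei with biotinylated nucleotides for capture and sequencing. The 16 libraries fall into 4 groups of 4, and the series asks how AsiDNA and belinostat, alone and together, alter open chromatin. The combination group had AsiDNA and belinostat, the AsiDNA group had AsiDNA and DMSO, the belinostat group had belinostat without AsiDNA, and the vehicle group had DMSO alone. Belinostat, a hydroxamate inhibitor of histone deacetylases, was given at 1 µM for 24 h. AsiDNA is a short double-stranded DNA that imitates a broken DNA end. The labels give neither its dose nor its time, and their culture notes name MTU87 and LTAU87 cells where the sample fields give U87, so the exposure of the AsiDNA groups is not settled here.

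Each group is represented by 1 peak list, named by all 4 of its libraries. No spread between replicates can therefore be given, no p-value was computed, and every difference between lists below is a difference between 4 files. Read depth is unknown. The lists held 134865 peaks for combination, 138273 for AsiDNA, 138937 for belinostat and 130318 for vehicle. Of 7 genes that mark glial and mesenchymal glioma lines, 6 had a peak at a gene end in every list (VIM, CD44, NES, SOX2, OLIG2 and S100B) and GFAP had none. Among markers of other cells, PTPRC (blood), EPCAM and CDH1 (epithelium), ALB (liver) and RBFOX3 (neurons) had no such peak in any list. CD3E and SPI1 (blood), APOA1 (liver), and SNAP25 and SYT1 (neurons) had one in all 4, and KRT5 (epithelium) had one in the combination and belinostat lists only. CDKN2A and CDKN2B, which lie in a region deleted in U87, had none.

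Ribosomal proteins assemble with ribosomal RNA into the small subunit, which reads the mRNA, and the large subunit, which joins amino acids and lets the new chain out through a tunnel. Their genes are short, are transcribed heavily in dividing cells, and must supply near-equal amounts of protein from loci scattered over the genome. In vertebrates their transcription usually begins at a C inside a run of pyrimidines, and the resulting oligopyrimidine at the 5′ end of the mRNA lets LARP1 and the mTOR pathway control translation of the whole set. Acetylated histones mark active promoters of this kind, and deacetylase inhibitors raise acetylation across the genome.

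The sequences around the start sites show what the members had in common apart from their names. The RefSeq promoter table (GRCh38.p14) had an entry for 54 of the 69 members, and for 52 of them it lay at the end of the gene used here. The first set shows 7 members whose start lies in a pyrimidine run, and the second 4 whose annotated start does not. RPS6 was chosen by role. The others were chosen from the members with the highest and lowest peaks, the widest spread over lists, or the changes of width described below. Each line runs 5′ to 3′ on the strand of the gene, from 40 bases before the start through the first 20 transcribed bases, with the unbroken run of pyrimidines through the start in capitals.
RPS13: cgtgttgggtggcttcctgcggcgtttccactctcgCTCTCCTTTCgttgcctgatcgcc
RPS6: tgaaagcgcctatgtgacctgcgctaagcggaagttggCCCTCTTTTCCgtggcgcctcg
RPS24: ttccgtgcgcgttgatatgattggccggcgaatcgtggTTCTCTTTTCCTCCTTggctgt
RPS10: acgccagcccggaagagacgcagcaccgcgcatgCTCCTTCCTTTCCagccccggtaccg
RPL26: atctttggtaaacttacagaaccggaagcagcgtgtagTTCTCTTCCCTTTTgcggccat
RPS27: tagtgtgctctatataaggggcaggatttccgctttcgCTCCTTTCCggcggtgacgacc
RPL14: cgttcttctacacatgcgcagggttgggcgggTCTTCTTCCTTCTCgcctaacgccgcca
RPL9: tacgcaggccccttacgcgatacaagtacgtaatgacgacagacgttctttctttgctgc
RPL11: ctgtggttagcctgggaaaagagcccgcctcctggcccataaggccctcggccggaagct
RPL10A: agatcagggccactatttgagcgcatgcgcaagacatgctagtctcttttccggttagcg
RPS28: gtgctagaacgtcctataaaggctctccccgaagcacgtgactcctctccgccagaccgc

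These windows lie at chr11:17077648-17077707 (minus strand) for RPS13, chr9:19380217-19380276 (minus) for RPS6, chr10:78033823-78033882 (plus) for RPS24 and chr6:34426050-34426109 (minus) for RPS10. They lie at chr17:8383174-8383233 (minus) for RPL26, chr1:153990722-153990781 (plus) for RPS27 and chr3:40457299-40457358 (plus) for RPL14. Those of the second set are chr4:39458903-39458962 (minus) for RPL9, chr1:23691739-23691798 (plus) for RPL11, chr6:35468361-35468420 (plus) for RPL10A and chr19:8321456-8321515 (plus) for RPS28. In RPL9 and RPL10A the annotated first base is an A and a pyrimidine run follows a few bases downstream of it. In RPS28 the annotated first base is also an A, and a pyrimidine run follows directly after it. In RPL11 the annotated first base is an A as well, and only a short run, ccctc, follows within its window.

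Of the 52 members with a start sequence, 40 (76.9%) began with C, against 11.3% of 13792 protein-coding genes with an entry at the end of the gene and 11.9% of the 9319 of these that were also open at a gene end in all 4 lists. A C followed by at least 4 more pyrimidines opened 36 members (69.2%), against 4.58% and 5.39% of those genes. The letters CTTT lay within 10 bases of the start in 31 members (59.6%), against 7.94% and 7.64%. TATA occurred between 40 and 15 bases upstream in 8 members (15.4%), among them RPS27, RPS28, RPL3 and RPL12, against 8.00% and 4.90%. The letters CCGGAAG, searched on both strands of the 300-base entry because proteins of the ETS family bind such letters, were in 19 members (36.5%), against 14.6% and 19.5%. RPS10, RPL26 and RPL11 above are among these 19. GGGCGG, bound by SP1 and its relatives, was in 28 members (53.8%), against 58.5% and 69.4%. The entries of the members were lower in GC content, with a median of 59.3% (quartiles 52.9% and 63%), against 62.7% (54% and 70%) for those genes and 65% (58% and 71.3%) for the open ones. They held a median of 25 CpG, against 22 and 26, and 38.5 sites cut by the nicking enzyme (CCA, CCG or CCT on either strand), against 43 and 44. A match of letters is a description and not a binding site.

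All 69 members were open at a gene end under every treatment. A gene-end peak is any peak that reaches to 1000 bp or less from an end of the gene. The combination list had one at 69 of 69 members, against 67.9% of all 19974 protein-coding genes, the AsiDNA list at 69 of 69, against 68.5%, the belinostat list at 69 of 69, against 68.6%, and the vehicle list at 69 of 69, against 67.4%. All 4 lists together had one at 69 of 69 members, against 64.1% of all genes. No member had a gene-end peak in one list and lacked it in another, and all 69 kept a peak when the window was narrowed to 500 bp or when peaks under a −log10 q of 5 were left out.

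The peaks at these genes were high within each list. The fold enrichment of a peak over its local background, a value of the authors' peak caller, served only to rank peaks inside their own list. It is given as a percentile, the share of the list's peaks with a fold no higher. The strongest gene-end peak of the members had a median percentile of 92.4 in combination, 86.0 in AsiDNA, 92.6 in belinostat and 86.0 in vehicle. Among the 12806 genes with a gene-end peak in all lists the medians were 79.7 in combination, 73.9 in AsiDNA, 80.2 in belinostat and 72.5 in vehicle. Above percentile 90 stood 41 members in combination (59.4%), 21 in AsiDNA (30.4%), 44 in belinostat (63.8%) and 23 in vehicle (33.3%). For all those genes the shares were 26.4% in combination, 16.1% in AsiDNA, 28.2% in belinostat and 15.4% in vehicle. The plot of the members beside all coding genes shows both the height and the small width of their peaks.

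**Figure D1:**
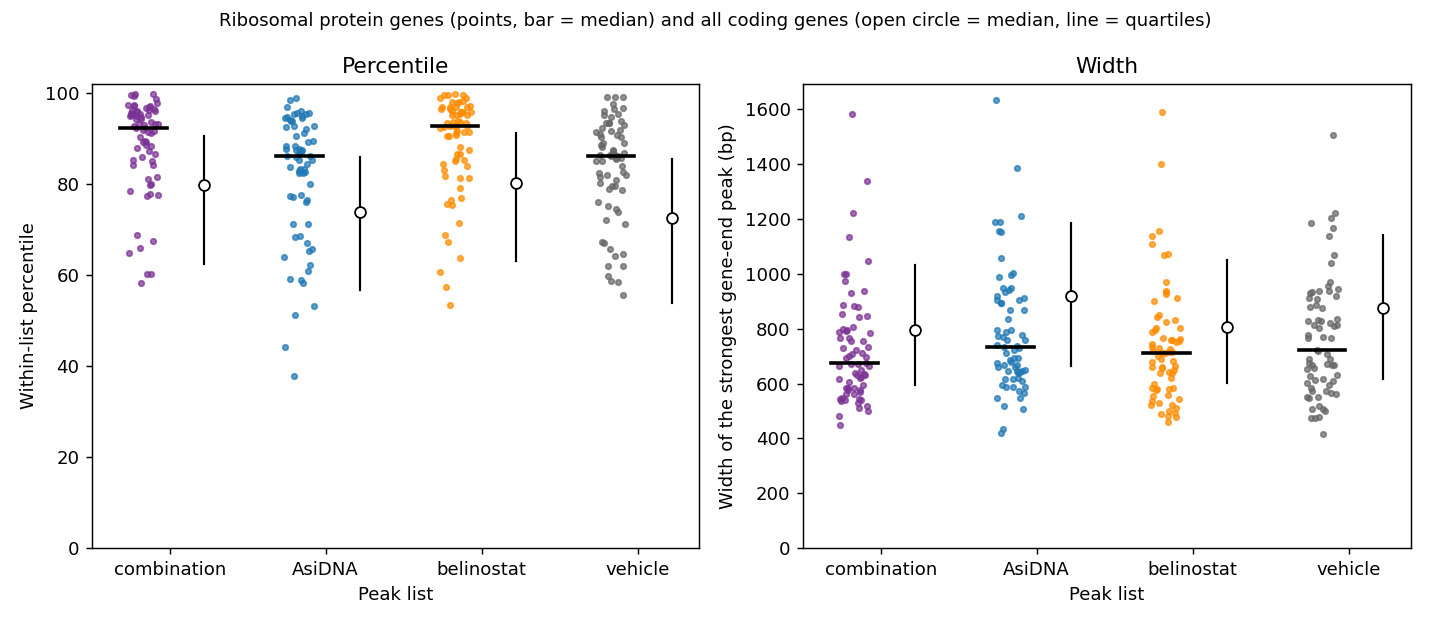
Within-list percentile (left, percent of the list's peaks) and width in bp (right) of the strongest gene-end peak in each of the 4 peak lists. Points are the 69 ribosomal protein genes with a bar at their median, and open circles with lines are the median and quartiles of the 12806 protein-coding genes with a peak in all lists. The members' median percentile is above the genes' median in each list, at 92.4 against 79.7 in combination and 86.0 against 72.5 in vehicle, and their median width is below it.

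RPL9, RPS13 and RPL11 were among the 5 members with the strongest peaks by lowest percentile. RPL9, a protein of the large subunit near the factor-binding site, stood at percentile 99.3 in combination, 98.9 in AsiDNA, 99.6 in belinostat and 99.2 in vehicle, at chr4:39458638-39459823 in vehicle. RPS13, a core protein of the small subunit, stood at 99.7 in combination, 95.4 in AsiDNA, 99.6 in belinostat and 97.6 in vehicle, at chr11:17077472-17078137 in vehicle. RPL9 and RPS27A were among the 3 members with the smallest range over the 4 lists. RPL11, which joins RPL5 and ribosomal RNA in a particle that can bind the p53 regulator MDM2, stood at 99.8 in combination, 95.0 in AsiDNA, 99.8 in belinostat and 99.0 in vehicle. Its annotated start is not inside a pyrimidine run, as the sequence above shows, and the peak of RPL9 is shared with the neighbouring gene LIAS.

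The 5 weakest by lowest percentile over the lists were RPS27, RPL14, RPS10, RPL12 and RPL19. RPS10 was among them by its AsiDNA value of 51.1 alone, and stood at 84.1 in combination, 85.0 in belinostat and 74.4 in vehicle. RPS27, a zinc-finger protein of the small subunit, stood at percentile 60.3 in combination, 37.8 in AsiDNA, 63.8 in belinostat and 58.8 in vehicle. Its peak, at chr1:153990495-153990909 in vehicle and 415 bp wide there, was the narrowest member peak of that list. RPL14 stood at 58.1 in combination, 44.1 in AsiDNA, 57.3 in belinostat and 55.5 in vehicle, and RPL12, of the base of the stalk that receives elongation factors, at 67.4 in combination, 53.1 in AsiDNA, 75.3 in belinostat and 58.5 in vehicle. RPL19 stood at 65.9 in combination, 62.2 in AsiDNA, 53.5 in belinostat and 75.1 in vehicle, so that its vehicle value was the highest of the 4. RPS27, RPL14, RPS10 and RPL12 all begin inside a pyrimidine run and RPL19 does not. Members weak by this measure thus occurred with both kinds of start.

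**Figure D2:**
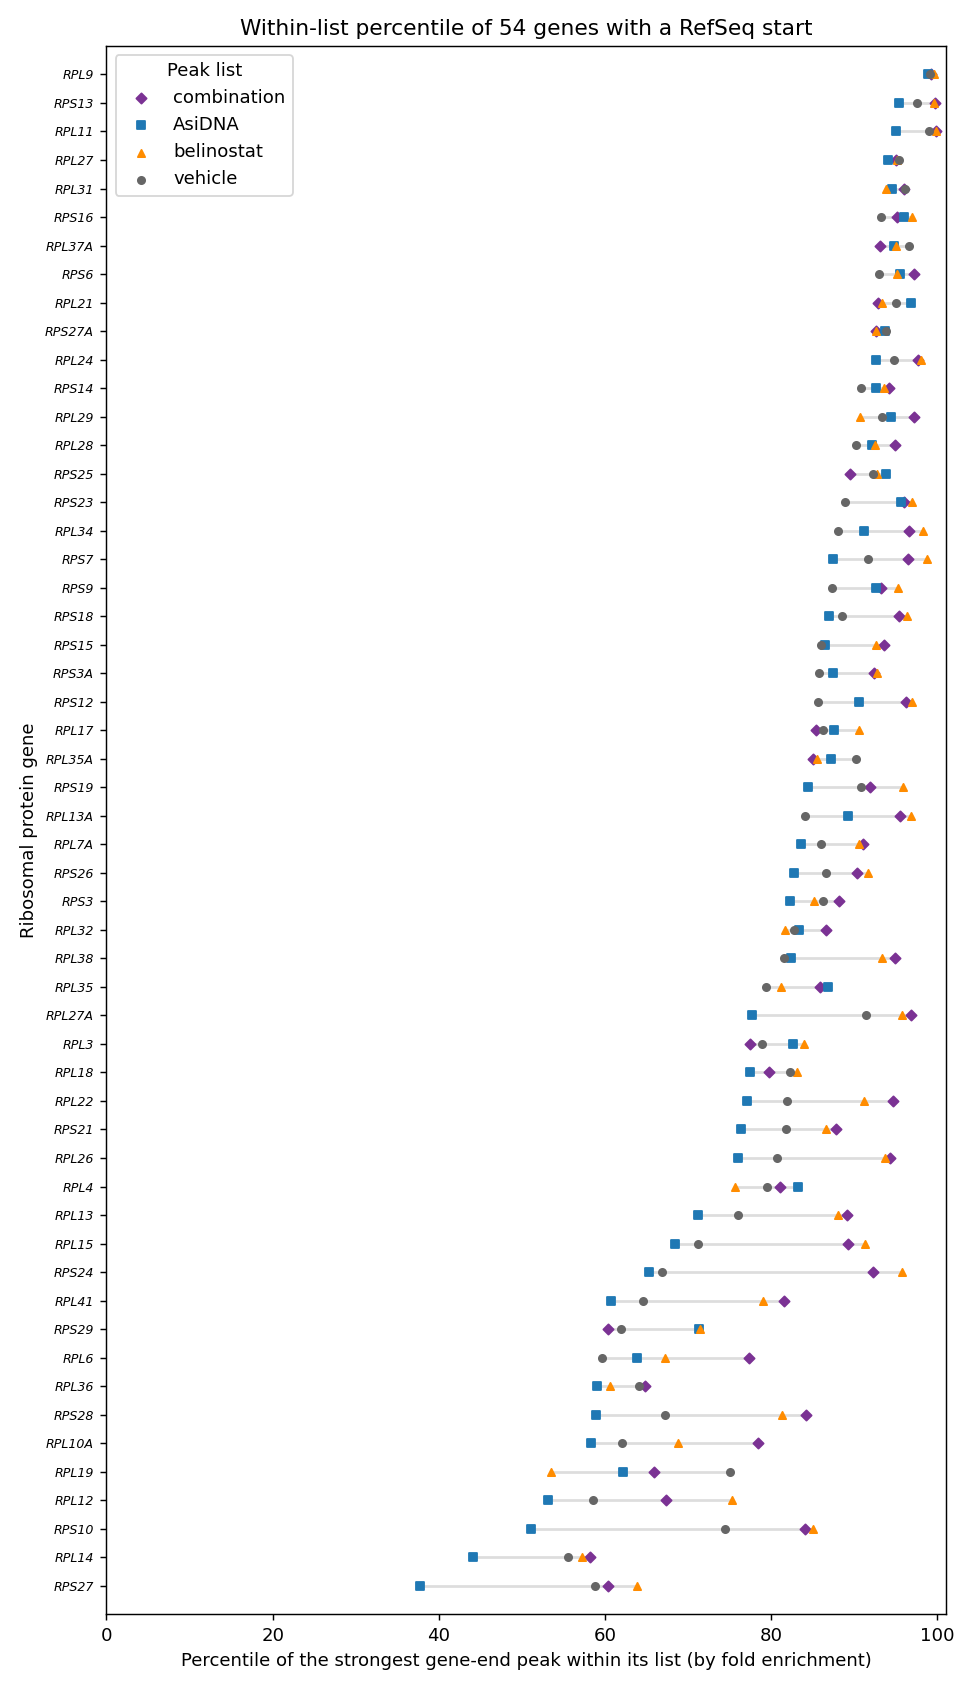
Percentile of the strongest gene-end peak within its list (x axis, percent of the list's peaks at or below its fold enrichment) for each of the 54 ribosomal protein genes with a RefSeq start (y axis), with 1 mark per list and a grey line over their range. Genes are ordered by their lowest percentile, from RPL9 at the top to RPS27 at the bottom. At RPS24 and RPL15 the 2 belinostat lists stand clear to the right of the 2 others.

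By the sequence at the gene end, the 36 members with a C and pyrimidine start had median percentiles of 93.1 in combination, 87.1 in AsiDNA, 93.3 in belinostat and 86.8 in vehicle, and the 16 with another start 87.9 in combination, 83.0 in AsiDNA, 89.3 in belinostat and 81.1 in vehicle. The 2 classes overlapped over most of their range in every list. At RPL4, RPL15, RPL17, RPL26, RPL41 and RPS27A the ranked peak of at least 1 list belonged to another RefSeq start or to the 3′ end. Without these 6, a check added after the data were seen, the medians were 93.1 in combination, 87.3 in AsiDNA, 93.3 in belinostat and 87.7 in vehicle for 34 members, and 87.9 in combination, 82.7 in AsiDNA, 86.0 in belinostat and 80.8 in vehicle for 12. The 19 members with CCGGAAG had medians of 94.2 in combination, 87.4 in AsiDNA, 92.7 in belinostat and 88.0 in vehicle, and the 33 without it 91.1 in combination, 83.6 in AsiDNA, 91.3 in belinostat and 86.0 in vehicle. Of 29 small subunit members, 21 in combination (72.4%), 10 in AsiDNA (34.5%), 22 in belinostat (75.9%) and 11 in vehicle (37.9%) passed percentile 90. Of 40 large subunit members, 20 in combination (50%), 11 in AsiDNA (27.5%), 22 in belinostat (55%) and 12 in vehicle (30%) did. For all genes with a peak in all lists the shares were 26.4% in combination, 16.1% in AsiDNA, 28.2% in belinostat and 15.4% in vehicle.

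The peaks sat just upstream of the start and reached little into the gene. At the 54 members with a RefSeq start (the one nearest the summit, where a gene has several), the peak summit lay upstream of the start at 53 in combination, 53 in AsiDNA, 54 in belinostat and 54 in vehicle. Among 10342 protein-coding genes treated in the same way this share was 78.8% in combination, 69.7% in AsiDNA, 78.3% in belinostat and 72.7% in vehicle. The exceptions among members were at RPS7 in combination, where the summit was on the first base, and RPS29 in AsiDNA, where it lay 41 bp into the gene. The median member summit was 104.5 bp upstream in combination, 119 bp in AsiDNA, 105 bp in belinostat and 110.5 bp in vehicle. For all those genes it was 75 bp in combination, 71 bp in AsiDNA, 77 bp in belinostat and 69 bp in vehicle. RPS19, a gene mutated in Diamond-Blackfan anaemia, was the farthest upstream in the vehicle list, at 568 bp, and is seen near the bottom of the plot of peak extents.

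The downstream edge separated the members from other genes more than the upstream edge. It lay a median of 211.5 bp into the gene in combination, 221.5 bp in AsiDNA, 225 bp in belinostat and 210.5 bp in vehicle. For all genes it lay at 307.5 bp in combination, 435 bp in AsiDNA, 313 bp in belinostat and 408 bp in vehicle. The quartiles in vehicle were 184 and 288 bp for members and 223 and 656 bp for all genes, so the ranges overlapped. The upstream edge lay at 434.5 bp in combination, 531 bp in AsiDNA, 458.5 bp in belinostat and 463 bp in vehicle for members, and at 434 bp in combination, 467.5 bp in AsiDNA, 444 bp in belinostat and 452 bp in vehicle for all genes. In all genes the downstream edge lay closer to the start in the lists with belinostat than in those without it, while the members' median was within 15 bp across the 4 lists.

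**Figure D3:**
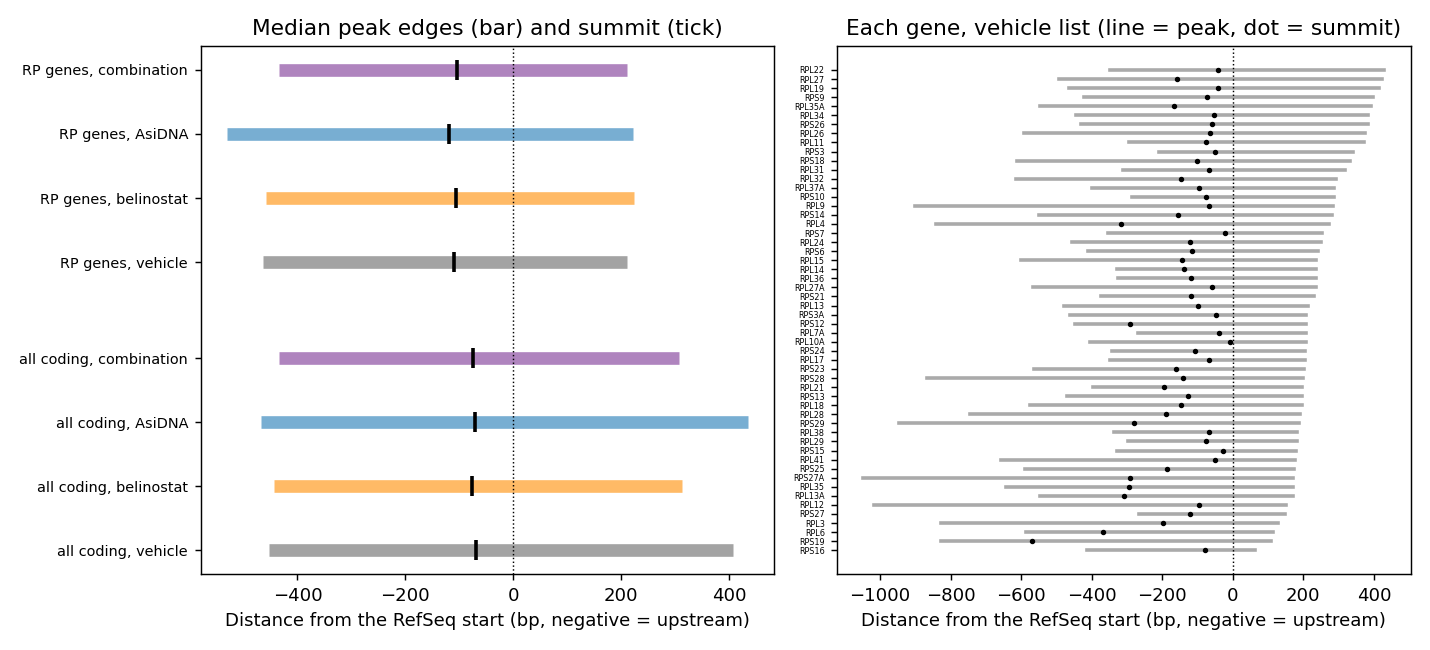
Extent of the peak at the RefSeq start, in bp from the start (negative is upstream). Left, bars run from the median upstream edge to the median downstream edge and ticks mark the median summit, for 54 ribosomal protein genes and 10342 protein-coding genes in each list. Right, the peak (line) and summit (dot) of each of the 54 genes in the vehicle list, ordered by downstream edge. The members' bars end 210.5 to 225 bp into the gene, and those of all genes 307.5 to 435 bp.

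The genes themselves are short and spread out. Their median span was 5011 bp (1335 to 27723), against 24170.5 bp for all protein-coding genes, so that both gene ends lie close together and the window covers more of the gene. They lay on 20 of the 22 autosomes, 12 of them on chromosome 19, and only 1 pair of them was closer than 50000 bp. A gene for a small nucleolar RNA, the kind of RNA that guides modification of ribosomal RNA, lay inside 25 members (36.2%), against 2.63% of all protein-coding genes. RPL3, RPL4, RPL7A, RPL13A and RPL23A were among those with 4, the most in any member. At 19 members the summit of the strongest vehicle peak also lay within 1000 bp of an end of another protein-coding gene, so it cannot be assigned to the member alone.

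In the lists with belinostat most members stood at a higher percentile, and so did most other genes. In belinostat against vehicle 57 of 69 members (82.6%) were higher, against 75.3% of the 12806 genes with a peak in all lists. In combination against AsiDNA, which shares no list with that comparison, 57 of 69 (82.6%) were higher, against 69.2%. The median difference in percentile was 5.0 for members and 5.9 for all genes in belinostat minus vehicle, and 5.6 for members and 4.4 for all genes in combination minus AsiDNA. In combination against vehicle 53 (76.8%) were higher, against 73.6%, and in belinostat against AsiDNA 57 (82.6%), against 70.2%. Both belinostat lists stood above both others at 45 members (65.2%), against 53.5% of all those genes. They stood below both others at 3 members (4.35%), RPL21, RPL35A and RPS27A, against 11.4%. Most genes of each kind thus shared the direction, and nothing here sets the members apart from the others by a test.

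A percentile within a list also moves with the rest of that list, and lists of unequal length do not show a change by rank alone. With all lists at the length of the shortest, 44 of 69 members had both belinostat lists on top. The share over all genes was not computed at that length, and was 53.5% with the full lists. When each member was ranked among the 12806 genes with a peak in all lists, a check added after the data were seen, the median rank was 79.7 in combination, 75.4 in AsiDNA, 79.2 in belinostat and 76.3 in vehicle. By that rank 30 of 69 members had both belinostat lists above both others, against 29.8% of genes. Both lay below both others at 18 of 69, against 27.6%. The members' medians in the 2 belinostat lists stayed above those in the 2 others by this rank, by less than they did in percentile. Their quartiles did not follow that order. The lower quartile was 60.8 in combination, 54.7 in AsiDNA, 58.6 in belinostat and 61.4 in vehicle, where it was highest. The upper quartile was 88.9 in combination, 89.3 in AsiDNA, where it was highest, 88.5 in belinostat and 87.6 in vehicle.

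Between lists that differ by AsiDNA the members' percentiles lay closer together. In AsiDNA against vehicle 28 of 69 members (40.6%) were higher, against 55.5% of all genes. The median difference was −1.2 for members and 0.9 for all genes. In combination against belinostat 32 (46.4%) were higher, against 45.5%. The median difference was −0.0 for members and −0.3 for all genes. Both AsiDNA lists stood above both others at 5 members (7.25%), RPL4, RPL29, RPL32, RPL35 and RPS6, against 9.71% of genes. They stood below both others at 6 (8.70%), among them RPL7, RPL18, RPL27, RPL37A and RPS15A, against 7.72%. Comparisons with vehicle share the vehicle list, and those with AsiDNA the AsiDNA list, so they do not support each other.

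Among proteins of the small subunit, RPS24 and RPS10 had the widest range over the lists. RPS24, mutated in some cases of Diamond-Blackfan anaemia, stood at percentile 92.2 in combination, 65.3 in AsiDNA, 95.7 in belinostat and 66.9 in vehicle. Its peak, at chr10:78033522-78034067 in vehicle, was 561 bp wide in combination, 586 in AsiDNA, 585 in belinostat and 546 in vehicle. Both belinostat lists were thus far above both others in rank, at a nearly constant width. RPS10, another gene of that disease, stood at 84.1 in combination, 51.1 in AsiDNA, 85.0 in belinostat and 74.4 in vehicle, and in AsiDNA it had 2 gene-end peaks where each other list had 1.

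RPS2, RPS3, RPS14, RPS19 and RPS26 each had a smaller range than RPS24 or RPS10. RPS2, at the channel where mRNA enters, stood at 96.2 in combination, 89.4 in AsiDNA, 95.7 in belinostat and 84.9 in vehicle, and RPS3, its neighbour there, at 88.2 in combination, 82.3 in AsiDNA, 85.2 in belinostat and 86.2 in vehicle. For RPS3 the belinostat list was below the vehicle list. RPS26, at the exit of the mRNA, stood at 90.3 in combination, 82.7 in AsiDNA, 91.6 in belinostat and 86.5 in vehicle. RPS14, whose loss on one copy of chromosome 5 contributes to an anaemia, stood at 94.2 in combination, 92.6 in AsiDNA, 93.6 in belinostat and 90.8 in vehicle. RPS19 stood at 91.9 in combination, 84.4 in AsiDNA, 95.8 in belinostat and 90.8 in vehicle. RPS19 moved more between the lists than RPS14 did.

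RPS6 and RPS27A stood high in every list. RPS6, the substrate of the S6 kinases below mTOR, stood at 97.2 in combination, 95.5 in AsiDNA, 95.1 in belinostat and 93.0 in vehicle, with the vehicle list lowest. RPS27A, made as a fusion with ubiquitin, stood at 92.6 in combination, 93.7 in AsiDNA, 92.7 in belinostat and 93.8 in vehicle. The belinostat lists were the lower pair there, by about 1 percentile, and the peak is shared with the neighbour CLHC1.

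Among large subunit proteins with roles around p53, RPL5 stood at 97.3 in combination, 86.0 in AsiDNA, 95.9 in belinostat and 85.0 in vehicle. RPL23, which can also bind MDM2, stood at 88.6 in combination, 85.3 in AsiDNA, 87.4 in belinostat and 85.5 in vehicle. RPL26, which binds the p53 mRNA, stood at 94.3 in combination, 76.0 in AsiDNA, 93.7 in belinostat and 80.7 in vehicle, though at different ends of the gene, as given below. The vehicle peak of RPL5 is shared with the neighbour DIPK1A. In RPL5, RPL11, RPL23 and RPL26 both belinostat lists were above both others. These genes were picked by role, so their shared direction gives no result about that role. The same order was found at 65.2% of the 69 members and 53.5% of the 12806 genes with a peak in all lists.

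RPL22, RPL38 and RPL13A were likewise among the 45 members, of 69, with that order. RPL22, needed for lymphocyte development in mice, stood at 94.7 in combination, 77.1 in AsiDNA, 91.1 in belinostat and 81.9 in vehicle. RPL38, which acts on translation of Hox mRNAs in mice, stood at 94.9 in combination, 82.4 in AsiDNA, 93.3 in belinostat and 81.5 in vehicle. RPL13A, which can leave the ribosome to silence inflammatory mRNAs, stood at 95.5 in combination, 89.2 in AsiDNA, 96.8 in belinostat and 84.0 in vehicle. RPL10A, of the large subunit, stood at 78.4 in combination, 58.3 in AsiDNA, 68.8 in belinostat and 62.0 in vehicle.

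At RPL3, RPL4 and RPL35A the 2 belinostat lists were not both above the 2 others. RPL3, which reaches toward the catalytic centre, stood at 77.4 in combination, 82.6 in AsiDNA, 84.0 in belinostat and 78.9 in vehicle. RPL4, which lines the tunnel, stood at 81.1 in combination, 83.2 in AsiDNA, 75.6 in belinostat and 79.5 in vehicle. RPL35A, a Diamond-Blackfan anaemia gene, stood at 85.0 in combination, 87.2 in AsiDNA, 85.5 in belinostat and 90.2 in vehicle. At RPL35A vehicle was the highest list.

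The strongest gene-end peak was not at the RefSeq start in every list at RPL4, RPL6, RPL17, RPL26 and RPL41. The strongest peak of RPL4 and of RPL41, a very small basic protein, lay at the 3′ end in all lists, beside SNAPC5 and ZC3H10. At the RefSeq start of RPL4 the peak stood at percentile 70.1 in combination, 74.6 in AsiDNA, 72.5 in belinostat and 69.3 in vehicle. That of RPL41 stood at 46.1 in combination, 38.2 in AsiDNA, 52.5 in belinostat and 33.4 in vehicle. RPL6, of the large subunit, had its strongest gene-end peak at the end shared with PTPN11, at 77.4 in combination, 63.9 in AsiDNA, 67.2 in belinostat and 59.7 in vehicle. Its RefSeq starts lie inside the annotated gene, with a peak at 93.6 in combination, 96.7 in AsiDNA, 97.8 in belinostat and 93.4 in vehicle. With only the start counted, 33 of 54 members had both belinostat lists above both others, against 55.1% of 10342 genes.

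RPL17 and RPL26 used different ends in different lists. In both belinostat lists the strongest peak lay at the 3′ end, at chr18:49486767-49487652 in combination and chr18:49486781-49487538 in belinostat for RPL17. In the other lists it lay at the 5′ end, at chr18:49492261-49492807 in AsiDNA and chr18:49492261-49492812 in vehicle. The 3′ summits of RPL17, at chr18:49487242 in combination and chr18:49487306 in belinostat, lay outside the 1000 bp window, and only the peak edges reached into it. RPL17 lines the exit tunnel, and its 5′ peak is shared with the read-through gene RPL17-C18orf32. Neighbours were searched for the vehicle peaks only, so whether the 3′ peaks of RPL17 and RPL26 are shared is not known. For RPL26 the 3′ peaks were chr17:8376454-8376991 in combination and chr17:8376454-8377034 in belinostat, and the 5′ peaks chr17:8382926-8383793 in AsiDNA and chr17:8382817-8383785 in vehicle. All 4 lists had 2 gene-end peaks at each gene, so the strongest peak changed place without a peak being gained or lost at either gene. At its RefSeq start RPL26 stood at percentile 91.0 in combination, 76.0 in AsiDNA, 92.9 in belinostat and 80.7 in vehicle.

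Peak widths were of similar size in the 4 lists. The median width of the strongest gene-end peak was 675 bp in combination, 734 bp in AsiDNA, 712 bp in belinostat and 723 bp in vehicle for members, and 794 bp in combination, 920 bp in AsiDNA, 805 bp in belinostat and 875 bp in vehicle for all genes with a peak in all lists. The median ratio of widths was 0.98 in members and 0.96 in all genes for belinostat over vehicle, and 0.95 in members and 0.92 in all genes for combination over AsiDNA. Width in both belinostat lists was below both others at 22 members (31.9%), against 40.4% of genes. It was above both others at 8 members (11.6%), among them RPL17, RPL23A, RPL38, RPS2, RPS26 and RPS27, against 11.2%.

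Few members passed a ratio of 1.5 in any pair of lists. Of the 69 members, 1 is 1.45%, 2 are 2.90%, 3 are 4.35% and 4 are 5.80%. In belinostat over vehicle RPL10A was wider (1 member, against 6.44% of genes) and RPL26 narrower (1, against 9.46%). In AsiDNA over vehicle RPS15, close to the decoding site, was wider (1, against 8.46%) and RPL9 narrower (1, against 3.91%). In combination over vehicle RPL17 and RPS15 were wider (2, against 5.96%) and RPL3, RPL26 and RPS28 narrower (3, against 10.2%). In combination over AsiDNA RPL17 was wider (1, against 3.58%) and 4 were narrower, among them RPL3, RPL26 and RPS28, against 12.7%. In combination over belinostat RPL15 was wider (1, against 3.83%) and RPL3 and RPL10A narrower (2, against 4.62%). In belinostat over AsiDNA RPL9 and RPL10A were wider (2, against 4.39%) and 0 narrower, against 12.1%.

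The individual changes came in several forms. RPL10A was 540 bp wide in combination, 596 in AsiDNA, 926 in belinostat and 613 in vehicle, so it was wide in 1 of the belinostat lists and not in the other. RPS28, near the mRNA exit of the small subunit, was 576 bp wide in combination, 1156 in AsiDNA, 801 in belinostat and 1068 in vehicle, with both belinostat lists below both others. Its peak is shared with NDUFA7. RPL3 was 594 bp wide in combination, where 2 peaks took the place of 1, and 1057 in AsiDNA, 1069 in belinostat and 955 in vehicle. RPL9 was 1046 bp wide in combination, 712 in AsiDNA, where it also had 2 peaks, 1072 in belinostat and 1186 in vehicle. The narrow value of RPL3 and that of RPL9 thus went with a split of the peak.

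RPS15 was 806 bp wide in combination, 794 in AsiDNA, 659 in belinostat and 509 in vehicle. RPL15, deep in the large subunit, was 1134 bp wide in combination, 910 in AsiDNA, 702 in belinostat and 837 in vehicle, the 2 belinostat lists being the widest and the narrowest. The widths of RPL17 (886 bp in combination, 547 in AsiDNA, 758 in belinostat and 552 in vehicle) and RPL26 (538 in combination, 868 in AsiDNA, 581 in belinostat and 969 in vehicle) compare different ends. At their RefSeq starts RPL26 was 724 bp wide in combination, 868 in AsiDNA, 935 in belinostat and 969 in vehicle, and RPL17 541 in combination, 547 in AsiDNA, 959 in belinostat and 552 in vehicle. The other genes at the extremes of a comparison (RPL11, RPL13, RPL23, RPL27, RPL34, RPL35, RPS3, RPS10, RPS16 and RPS29) stayed within the ratio of 1.5.

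**Figure D4:**
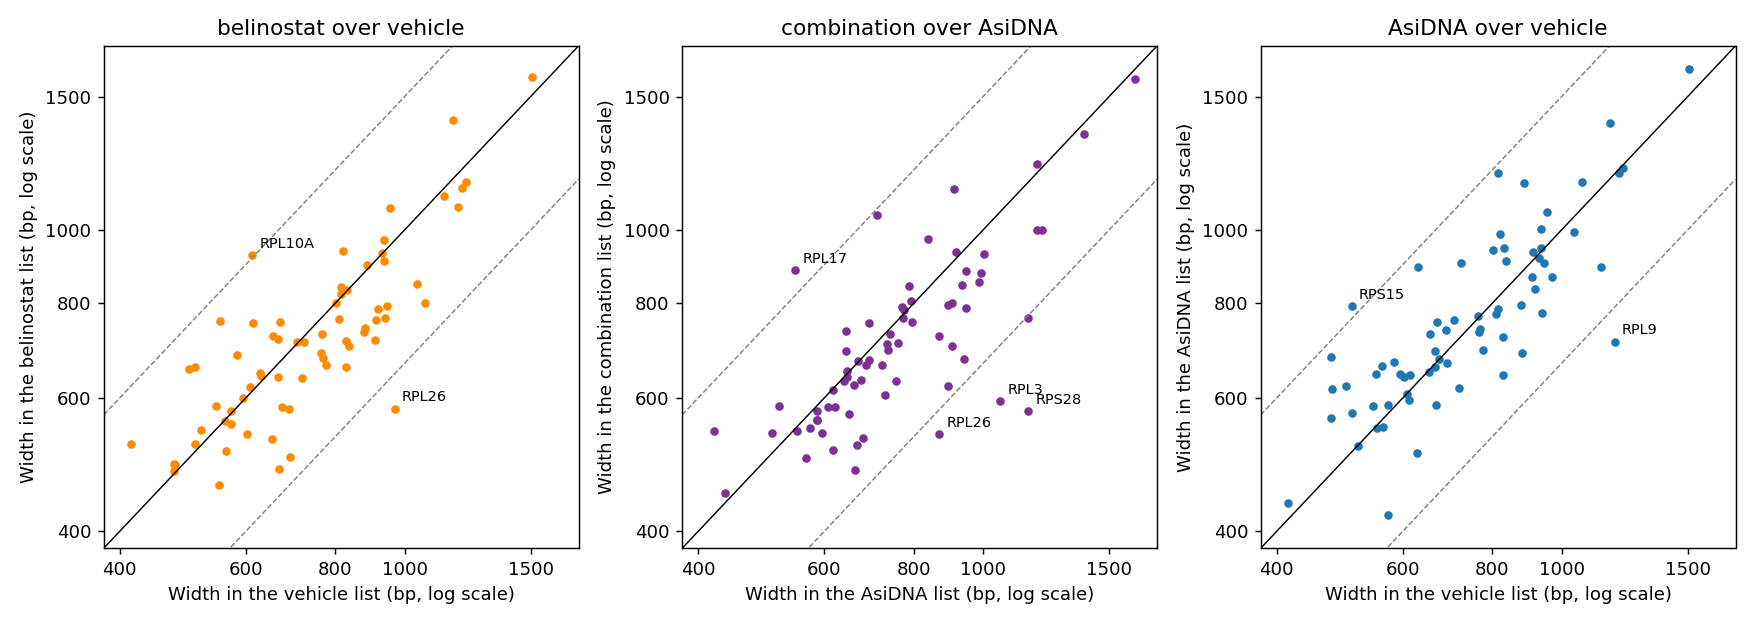
Width in bp of the strongest gene-end peak of each of the 69 ribosomal protein genes (points, log scales) in belinostat against vehicle, combination against AsiDNA, and AsiDNA against vehicle. The solid line marks equal width and the dashed lines a ratio of 1.5 either way, with genes beyond them named where they have a RefSeq start. Most points lie between the dashed lines, and 1 wider and 4 narrower genes lie beyond them in combination over AsiDNA.

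Genes that work with the ribosomal proteins were nearly all open at a gene end too. Their counts below are to be read against all protein-coding genes, of which 64.1% were open at a gene end in all lists, and of these 53.5% had both belinostat lists above both others. Of 10 ribosomal protein genes outside the naming rule or on the X chromosome, 9 were open at a gene end in all lists. The 9 had median percentiles of 81.6 in combination, 69.0 in AsiDNA, 79.1 in belinostat and 73.0 in vehicle, and both belinostat lists stood above both others at 7 of the 9. RPSA stood at 93.3 in combination, 98.0 in AsiDNA, 93.9 in belinostat and 97.7 in vehicle, with the belinostat lists lower. RPS4X stood at 64.0 in combination, 35.3 in AsiDNA, 75.4 in belinostat and 33.6 in vehicle.

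All 34 translation factors had a peak in all lists, with medians of 85.2 in combination, 79.0 in AsiDNA, 86.9 in belinostat and 74.9 in vehicle, and both belinostat lists were on top at 24 of the 34 (70.6%). EEF2, which moves the ribosome along the mRNA, was weak, at 11.2 in combination, 30.2 in AsiDNA, 27.1 in belinostat and 30.1 in vehicle. All 22 ribosome biogenesis genes had peaks, with medians of 82.8 in combination, 82.1 in AsiDNA, 82.0 in belinostat and 80.5 in vehicle, and both belinostat lists on top at 12 of the 22 (54.5%). Of 77 mitochondrial ribosomal protein genes, which encode the ribosome of mitochondria, 75 had a peak in all lists. Their medians were 87.5 in combination, 83.4 in AsiDNA, 90.1 in belinostat and 81.4 in vehicle, and 48 of the 75 (64.0%) had both belinostat lists on top. The median percentile of the cytosolic members was above the median of each of these lists of genes in every peak list. Single members could lie below, as RPS27 and RPL14 did in every peak list.

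Among 8 genes that control ribosomal protein mRNAs, both belinostat lists were on top at 6 of the 8. MTOR, the kinase of that pathway, stood at 95.8 in combination, 84.3 in AsiDNA, 98.4 in belinostat and 83.7 in vehicle. LARP1, which binds the oligopyrimidine, stood at 79.2 in combination, 80.7 in AsiDNA, 67.0 in belinostat and 69.0 in vehicle, where the AsiDNA lists were the higher pair. No level of RNA or protein was measured, so a peak at these genes gives accessibility and not expression.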

How the data were processed

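NicE-seq libraries from 16 U87 samples were grouped by the treatment field of the labels. The submitters' processing notes name MACS2, Bowtie2, Picard, SAMtools, deepTools and Trim Galore 0.5.0, with the hg38 build. What each tool did, any input or blacklist, and how 4 libraries became 1 list are not stated. The authors' peak caller gave each peak a fold enrichment (a ratio to local background, unscaled between lists), a −log10 q-value of at least 1.30 and a −log10 p-value, deposited as a score. The deposited summit is an offset within the peak. Depth per library is unknown, and deeper sequencing by itself can widen peaks or move their rank.

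Peaks on chromosomes 1 to 22 and X were ranked by fold enrichment and joined to gene ends of the RefSeq table (GRCh38.p14, the hg38 coordinates, read 1-based) within 1000 bp. The peak with the highest fold gave percentile and width. Starts and sequences came from the RefSeq promoter table, 300 bases a gene, 250 of them before the start. The 15 members without an entry are named in no sequence result.

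The members, the lists of other genes and the rules were chosen with earlier results of these data known. Named genes were the 5 highest and 5 lowest by lowest percentile, the 3 widest and 3 narrowest ratios in each of the 6 pairs of lists, the 3 largest and 3 smallest ranges, and 21 genes by role. Members counted by name in a comparison, and other genes given with values, were named after their values were seen. Some genes that these rules name are not reported here. With 1 list a group all comparisons are descriptions. The gene-end search was tested on simulated peaks against a direct search and gave 0 wrong answers at 239 genes of chromosome 21. Analyses ran in Python 3.11.15 with pandas 2.3.3, numpy 2.4.6 and, for figures, matplotlib 3.10.9.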

Additional observations from a re-analysis of the deposited data

How the results depend on the processing

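Of 140 values recomputed for 21 results under other settings, 121 stayed close to the reported value and 19 moved. Close means a count within 1.5 times or a median inside the interval of the reported median over members. Counts were compared without regard to the number of members, so 54 of 54 by start only passed as close to 69 of 69. Likewise 33 of 54 and 34 of 50 passed as close to 45 of 69. The 121 include the counts of members with a peak, which held every member counted, so the 121 do not measure stability. Every member kept a gene-end peak under each window, q and list-length setting, and the count with both belinostat lists on top, 45 as reported, ran from 30 by rank among genes, at the edge of that tolerance, to 46. Ranked by −log10 q, the median percentile became 89.4 in AsiDNA and 89.4 in vehicle. Ranked among genes it became 79.7 in combination, 75.4 in AsiDNA, 79.2 in belinostat and 76.3 in vehicle. Members with both belinostat lists below both others became 8 by −log10 q and 18 by rank among genes, against 3. With the lower ratio tried, wider or narrower members numbered 11 in belinostat over vehicle, 12 in AsiDNA over vehicle, 11 in combination over vehicle, 13 in combination over AsiDNA, 6 in combination over belinostat and 17 in belinostat over AsiDNA. With summed bases they numbered 5 in belinostat over vehicle and 2 in combination over AsiDNA. A window of 2000 bp gave 4 in AsiDNA over vehicle, and 500 bp gave 3 in combination over vehicle and 3 in combination over AsiDNA. The cause of these moves was not tested, apart from the lower ratio, which admits more members by its construction. Ranking among genes, the split counts and the run without members that share a peak (34 of 50 with both belinostat lists on top) were chosen after seeing the data. Shares over all genes exist for the split counts as reported (53.5% on top, 11.4% below) and by rank among genes (29.8%, 27.6%). With only the start counted, the share on top was 55.1%. No share was computed for the other recomputed counts, so those give no comparison with other genes. No paired analysis was possible because each group has 1 list. The unknown depth limits every comparison of width and rank.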

Other observations

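The human genome holds many processed copies of ribosomal protein mRNAs, and these, like pseudogenes in general, were mostly closed. Of 1796 ribosomal protein pseudogenes in the gene table, 157 (8.74%) were open at an end in all lists, against 10.7% of all 15727 pseudogenes. Per list the share was 12.0% in combination, 12.5% in AsiDNA, 13.1% in belinostat and 11.6% in vehicle. Where a copy had a peak, its median percentile was 56.0 in combination, 55.2 in AsiDNA, 56.0 in belinostat and 54.7 in vehicle, below the medians of the coding members. For all pseudogenes with a peak it was close to this, at 57.4 in combination, 56.4 in AsiDNA, 56.8 in belinostat and 56.5 in vehicle. Reads that match a gene and its copies equally well cannot be placed with certainty, and how the authors treated them is not given in the sources used here.

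Of 8 paralogs of ribosomal proteins, 7 had a peak in all lists and RPL10L, a gene used mainly in the testis, had none. RPL22L1 stood at percentile 97.8 in combination, 97.1 in AsiDNA, 99.2 in belinostat and 96.3 in vehicle, above its relative RPL22 in each list. RPL26L1 stood at 50.7 in combination, 33.6 in AsiDNA, 53.5 in belinostat and 47.7 in vehicle, below RPL26 in each. RPL3L, a muscle form of RPL3, stood at 95.1 in combination, 79.1 in AsiDNA, 91.8 in belinostat and 88.9 in vehicle.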
